A study of Mus musculus with 12 samples.

Results

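The heat shock proteins and DnaJ chaperones of mouse thymic epithelial cells were taken from a gene count table by symbol. The set holds every symbol that starts with Hspa, Hspb, Hspd, Hspe, Hsph, Hsp90a or Dnaj, together with the heat shock factor genes Hsf1 and Hsf2. The endoplasmic reticulum chaperones Hspa5, Dnajb9, Dnajb11 and Dnajc3 were left out of it. This gave 72 members among the 25867 genes with a symbol. Roles were assigned from the symbol alone, not from what each protein is known to do. By role they are 2 heat shock factors, 13 HSP70 and HSP110 genes, 2 cytosolic HSP90 genes, 2 mitochondrial chaperonin subunits, 8 small heat shock genes, 2 genes of proteins that bind HSP70 or a small heat shock protein, and 4, 11 and 28 DnaJ genes of classes A, B and C. Class C includes Dnajc19-ps, a processed copy of Dnajc19.

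The RNA came from thymic epithelial cells, the stromal cells that display self-antigens to developing T cells, sorted from organ cultures of C57BL/6 thymus lobes taken at embryonic day 15.5. Every culture had 4 to 5 days in 1.35 mM 2'-deoxyguanosine, which removes thymocytes, and then 3 days with an agonist antibody to the receptor RANK at 10 µg/mL, which brings on AIRE. Of the 4 groups of 3 biological replicates, the first was labelled genotype control and given tamoxifen, and the second was the Kat7 knockout, also given tamoxifen, in which the series design names RosaCre-ERT2 and Kat7fl/fl alleles. The other two groups were wildtype cultures given the solvent DMSO or the KAT7 inhibitor WM-3835, which the sample titles spell WM-3825. The Rosa locus is active in most cell types, so the Cre is not limited to epithelium, and the labels do not detail the alleles of the control genotype, the tamoxifen schedule, or the dose and duration of the inhibitor. KAT7 is a histone acetyltransferase, and the comparisons ask which transcripts differ when it is deleted or inhibited.

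Heat shock proteins keep other proteins folded. HSP70 proteins bind exposed stretches of unfolded chains and release them with ATP, and the J domain of a DnaJ protein brings the client and starts ATP hydrolysis. HSP110 proteins exchange the nucleotide of HSP70, HSP90 finishes the folding of kinases and nuclear receptors, the chaperonin of HSPD1 and HSPE1 encloses proteins inside mitochondria, and small heat shock proteins hold unfolding proteins without ATP. In stressed cells the factor HSF1 forms trimers that bind heat shock elements, inverted repeats of the unit GAA, and raise transcription of a subset of these genes within minutes.

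Part of that subset carries the element just upstream of the gene. In RefSeq windows from 250 bases before to 50 bases after the transcription start (GRCm38.p6, the assembly also called mm10), the 8-base form GAANNTTC, which reads the same on both strands, was found for 7 of the 8 members of a heat-inducible list that have a window (87.5%). It was found for 7 of 48 other members (14.6%) and for 2442 of 27025 genes overall (9.04%). Dnajb1 was the heat-inducible member without it, and Hspa8 and Hsp90aa1 had no window. The 3-unit forms, which are GAANNTTC followed by NNGAA or preceded by TTCNN and so contain the 8-base form, were found for Hspd1, Hspe1 and Hsph1, for Dnajb6 among the other members, and for 0.662% of all genes. The windows of Hspa1a and Hspa1b, the stress-inducible HSP70 pair, have the same base at 296 of 300 positions. Their 250 bases before the start are shown, with the element in capitals, because both genes were called higher in the knockout. Both lie on the minus strand, Hspa1b at chr17:34959239-34959488 and Hspa1a at chr17:34972157-34972406.
Hspa1b: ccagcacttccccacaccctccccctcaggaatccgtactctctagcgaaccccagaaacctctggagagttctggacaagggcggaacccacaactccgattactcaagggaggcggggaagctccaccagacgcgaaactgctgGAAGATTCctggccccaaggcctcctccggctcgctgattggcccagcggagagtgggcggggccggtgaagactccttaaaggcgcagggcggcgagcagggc
Hspa1a: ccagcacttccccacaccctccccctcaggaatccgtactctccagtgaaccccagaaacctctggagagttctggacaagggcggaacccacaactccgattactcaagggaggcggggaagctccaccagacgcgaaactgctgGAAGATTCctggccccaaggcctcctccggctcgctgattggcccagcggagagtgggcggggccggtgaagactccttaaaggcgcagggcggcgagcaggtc
Hspd1 and Hspe1, the chaperonin pair that had the smallest adjusted p of all members between the control sets, lie head to head and share one element. The 30 bases around it are shown on each gene's strand, chr1:55088056-55088085 on the minus strand for Hspd1 and chr1:55088051-55088080 on the plus strand for Hspe1, with the repeats in capitals. In GENCODE vM21 they fall in the first exon of a longer Hspd1 transcript. The stretch before Hspb1 (chr5:135887789-135887838, plus strand), the gene with the clearest change under the inhibitor, holds a pair of 8-base forms, in capitals.
Hspd1: cgcggggccTTCCGGAAGGTTCTAGAAcgg
Hspe1: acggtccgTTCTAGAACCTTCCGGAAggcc
Hspb1: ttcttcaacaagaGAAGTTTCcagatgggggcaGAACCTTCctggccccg

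Before the chaperones, the labels were checked. Kat7 stood at 80.5 ± 7.38 CPM in the controls and 0.762 ± 0.138 CPM in the knockouts (mean ± SD of 3 libraries, as throughout), and at 87.3 ± 2.37 and 99.4 ± 0.953 CPM with DMSO and WM-3835. CPM are counts scaled to a common library size with TMM factors. Libraries held 26656847 to 52368012 counts. The epithelial marker Epcam, the thymic epithelial factor Foxn1, Krt8 and Aire were present in all 12 libraries, and 8 thymocyte markers summed to 8.63 to 16.5 CPM, with Rag2 at 0 throughout. Xist, the RNA of the inactive X chromosome, stood at 2.34 to 3.17 CPM in the controls, 1709, 1191 and 4.94 CPM in the knockout, and 846 to 2118 CPM in the wildtype libraries, so the controls differed from most other libraries in Xist as well as in their group.

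Members ranged from some of the most abundant transcripts of these cells to none. Levels of different genes are compared as RPKM, CPM per kilobase of gene length. Hsp90ab1, the constitutive HSP90, was highest at a mean of 1018 RPKM over all libraries (933 to 1139), followed by Hspa1b at 767 (463 to 955) and Hspa8, the constitutive HSP70 that uncoats clathrin vesicles, at 442 (388 to 502). Then came Hspa1a at 273 (162 to 343), the mitochondrial HSP70 gene Hspa9 at 231 (131 to 298), Hspe1 at 170 (104 to 228), the small heat shock protein gene Hspb1 at 146 (89.1 to 208) and the class B gene Dnajb1, the main J partner of inducible HSP70, at 144 (101 to 207). The ranges of Hspb1 and Dnajb1 overlap almost fully, as do those of Hspa1a and Hspa9, so neither pair has a clear order. These 8 members exceeded 100 RPKM, 35 lay between 10 and 100, 18 between 1 and 10, and 11 below 1. The 5 members with most counts held 63.5% of all member counts.

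Among the heat shock factors, Hsf1 stood at a mean of 36.2 RPKM and Hsf2 at 8.16. The highest member of each remaining DnaJ class was Dnaja2 at 57.5 RPKM in class A and Dnajc7 at 65.8 in class C, and Hspbp1, a nucleotide exchange factor of HSP70, stood at 25.1. A few members known from testis or muscle were at the limit of detection. Dnajb8 and Dnajc5g had 0 counts in all 12 libraries, which allows up to 0.0573 to 0.113 CPM per library (3 counts, counting error only), Dnajc5b had 26 counts in all and Hspb3 12. These 4 were not tested, which leaves 68, and 60 members exceeded 1 CPM in every library.

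**Figure D1:**
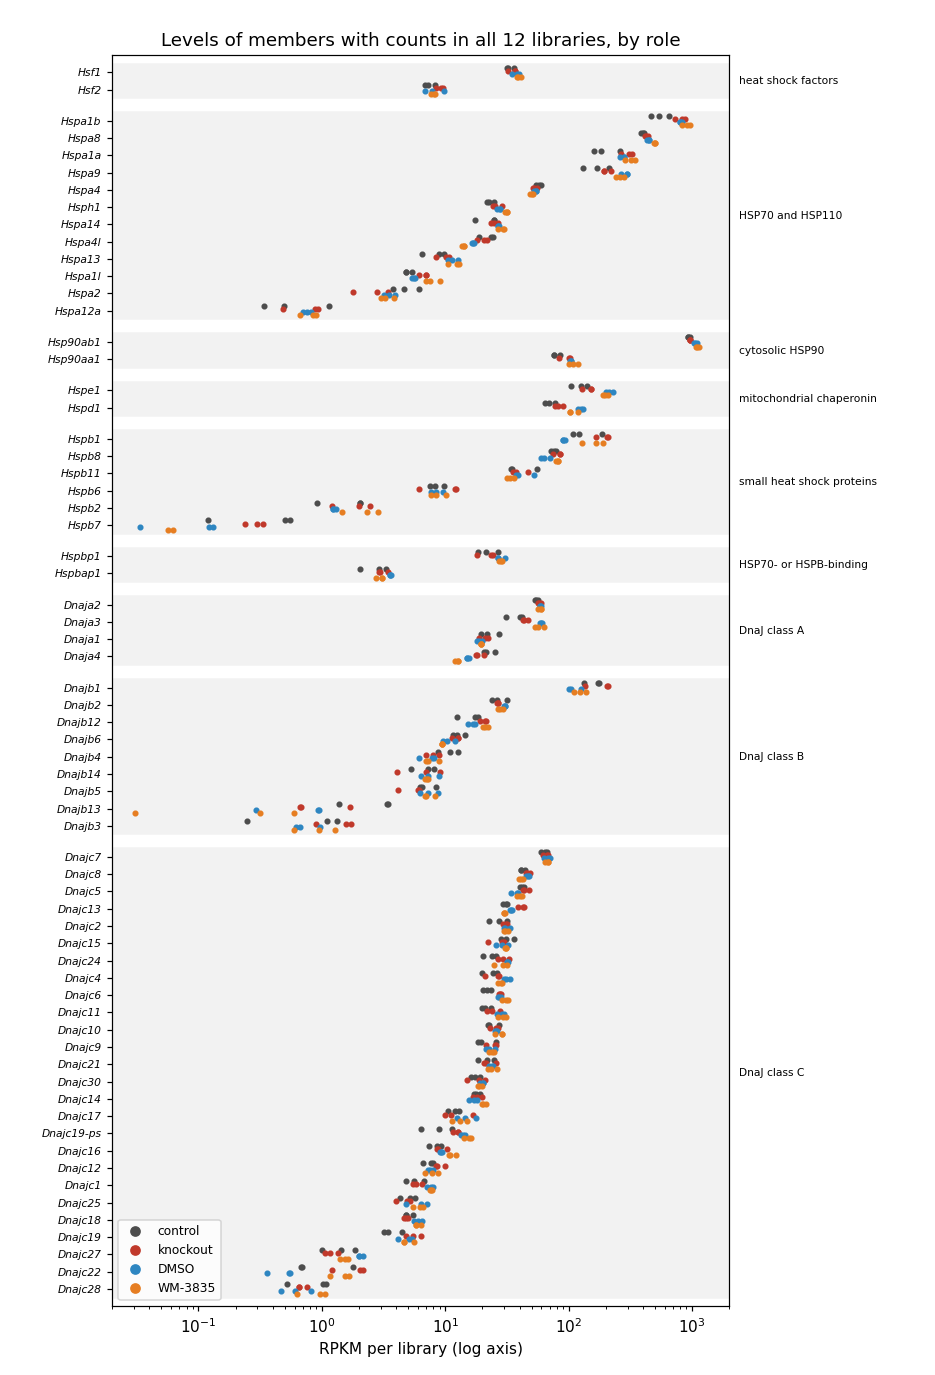
Level of each member with counts in every library, in RPKM on a log axis, 1 point per library coloured by group and members ordered by role. Hsp90ab1 lies highest at 933 to 1139 RPKM, and the control points of Hspa1b (a mean of 553 RPKM) lie left of those of the other groups.

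Counts of some members may include reads of near-identical copies or of other genes that share sequence, since how shared reads were counted is not given. Of all 75-base runs in GENCODE vM21 transcripts, Hspa1a shares 61.7% with other genes, Hspa1b 55.8%, Hspa1l 71.1%, Hspa8 68.6%, Hsp90aa1 53.1%, Dnaja4 51.5%, Hspb1 47.3%, Hspd1 33.7%, Hspe1 29.1% and Dnajc14 25.0%, against 2.02% for Dnajc13. The shared runs of Dnaja4 were all with Wdr61 and those of Dnajc14 all with Ormdl2, genes outside the set. Hspa1a and Hspa1b share mostly with each other, and Hspa1b had 2.50 to 3.05 counts for each Hspa1a count, so their values are not independent. The sum of the pair is given with the results.

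In the knockout, the inducible HSP70 pair was higher, and so were the cytosolic HSP90 gene Hsp90aa1 and a pair of class C genes that act on clathrin and endosomes. Of the 68 tested members 5 rose and 1 fell (8.82%, edgeR adjusted p under 0.05 over all genes), against 14.2% of all 18670 tested genes, of which 6.12% were called higher and 8.06% lower. The share called among members was thus no higher than among genes at large. The median log2 change of the members was 0.10, against -0.01 for all genes. The groups did not overlap for 15 members in the higher and 2 in the lower direction, against 12.2% and 13.5% of all genes (25.7% in either direction).

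Hspa1b stood at 1302, 1528 and 1831 CPM in the controls and at 2053, 2469 and 2322 CPM in the knockout. Hspa1a stood at 452, 513 and 733 CPM in the controls and at 745, 912 and 854 CPM in the knockout. Every knockout library lay above every control library for both genes, with control 3 closest to the knockout. Hspa1b rose by 0.55 on the log2 scale (SE 0.10, 1.47-fold, adjusted p = 9.33e-04) and Hspa1a by 0.57 (SE 0.13, 1.48-fold, adjusted p = 0.00651). Their summed level was 1754 to 2564 CPM in the controls and 2798 to 3381 CPM in the knockout. Hspa2, an HSP70 best known from male germ cells, was the member that fell, from 12.4, 10.2 and 16.5 CPM to 4.82, 7.47 and 9.18 CPM (-0.87, SE 0.24, adjusted p = 0.0198). Its call ended without control 3 (-0.65, adjusted p = 0.0748), without knockout 1 (-0.63, adjusted p = 0.0937) and without knockout 2 (-0.89, adjusted p = 0.053). Of the 13 HSP70 and HSP110 genes 2 rose, 1 fell and 10 were not called, and their summed level was 3799 to 4297 CPM in the controls and 4857 to 5382 CPM in the knockout.

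Hsp90aa1, the stress-responsive HSP90, stood at 217, 216 and 244 CPM in the controls and 236, 293 and 286 CPM in the knockout. Knockout 1 lay below control 3, so the groups overlapped, and the rise of 0.27 (SE 0.09, adjusted p = 0.0467) was marginal. It was not called without any 1 of control 1, control 2, knockout 2, knockout 3, DMSO 1, DMSO 3 or WM-3835 3 (0.22 to 0.28, adjusted p 0.0524 to 0.158). Hsp90ab1, the constitutive partner, stood at 2364 ± 45.2 CPM in the controls and 2415 ± 20.1 CPM in the knockout (0.03, SE 0.05, adjusted p = 0.758).

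Dnajc13, which works with HSC70 on early endosomes, had the smallest adjusted p of all members. It stood at 227, 244 and 237 CPM in the controls and 326, 335 and 300 CPM in the knockout, with no overlap and a rise of 0.44 (SE 0.07, 1.36-fold, adjusted p = 2.10e-04). Dnajc6, the neural auxilin that drives clathrin uncoating, stood at 131, 113 and 123 CPM in the controls and 159, 153 and 155 CPM in the knockout, again with no overlap (0.35, SE 0.07, adjusted p = 0.00411). The other 24 tested class C genes were not called, nor were the 4 of class A and the 10 tested of class B. The summed level of class C was 1325 to 1339 CPM in the controls and 1476 to 1552 CPM in the knockout.

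The members nearest to the threshold from outside were Hspb1 and Hspd1. Hspb1, which caps actin filaments and holds unfolding proteins, stood at 97.9, 110 and 168 CPM in the controls and 149, 188 and 186 CPM in the knockout (0.48, SE 0.16, adjusted p = 0.0512). Control 3 lay inside the knockout range, and without it the change was 0.76 (adjusted p = 7.64e-04). It was also called without knockout 1 (0.59, adjusted p = 0.0391), WM-3835 1 (0.49, adjusted p = 0.0432) or WM-3835 2 (0.49, adjusted p = 0.0319), by limma-voom (0.51, adjusted p = 0.0356) and without a low-count filter (0.48, adjusted p = 0.0124). Hspd1 stood at 151, 162 and 179 CPM in the controls and 182, 192 and 211 CPM in the knockout (0.25, SE 0.09, adjusted p = 0.056). It was called without control 3 (0.33, adjusted p = 0.0173), knockout 1 (0.31, adjusted p = 0.0449) or WM-3835 3 (0.26, adjusted p = 0.0454), by DESeq2 (0.24, adjusted p = 0.0372) and without a low-count filter (0.25, adjusted p = 0.0456). With control 3 left out, 10 members were called, all higher. Neither heat shock factor was called: Hsf1 stood at 67.2 ± 5.32 and 70.9 ± 5.25 CPM (0.08, adjusted p = 0.632), and Hsf2 at 19.5 ± 1.91 and 23.8 ± 1.50 CPM (0.29, adjusted p = 0.203).

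The heat-inducible members are Hspa1a, Hspa1b, Hspa8, Hsph1, Hspb1, Hsp90aa1, Hspd1, Hspe1, Dnajb1 and Dnaja1. Of these 10, 3 rose in the knockout, where 6.12% of all genes were called higher, and 7 were not called. Their median log2 change was 0.23. Their summed level was 3643, 4088 and 4704 CPM in the controls and 4852, 5714 and 5590 CPM in the knockout. Hspa1a and Hspa1b together made up 1754 to 2564 and 2798 to 3381 CPM of it. The HSP40 gene Dnajb1 stood at 303, 391 and 401 CPM in the controls and 305, 462 and 468 CPM in the knockout (0.17, SE 0.14, adjusted p = 0.466), and its class A relative Dnaja1 at 132 ± 22.6 and 120 ± 9.85 CPM (-0.13, adjusted p = 0.418). In control and knockout the libraries lowest in Hspa1b, control 1 and knockout 1, were also the lowest in Dnajb1 and Hspb1. Hsph1, the inducible HSP110, stood at 80.1 ± 5.31 and 90.8 ± 8.35 CPM (0.18, adjusted p = 0.157), and Hspe1 at 95.1 ± 14.8 and 110.5 ± 10.8 CPM (0.22, adjusted p = 0.174).

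Immediate early genes, transcription factors and regulators that cells switch on quickly after many stimuli, moved the other way. They were listed as genes known to rise within minutes of handling or dissociating tissue, as Hspa1a, Hspa1b and Dnajb1 also do. The cells here were sorted, and the part of handling in any of these levels was not tested. Of 16 listed, 13 fell in the knockout and none rose, beside 8.06% of all genes called lower and 6.12% higher. The median log2 change of the 16 was -0.48, and their summed level went from 15170 to 17550 CPM in the controls to 11400 to 12930 CPM in the knockout. Fosb fell by 1.11 on the log2 scale (adjusted p = 2.28e-04), the phosphatase gene Dusp1 by 0.91 (adjusted p = 3.61e-05) and Ier3 by 0.63 (adjusted p = 3.90e-04). The part of these genes in the chaperone values was not tested. With Xist as a covariate, 2 of the 16 immediate early genes were called lower. In the same fit 2.57% of all genes were called and none of the 6 chaperone calls remained: Dnajc13 0.34 (adjusted p = 0.0622), Hspa1b 0.57 (0.0525), Dnajc6 0.34 (0.131), Hspa1a 0.57 (0.138), Hsp90aa1 0.34 (0.189) and Hspa2 -0.46 (0.526). With knockout 3, which was low in Xist like the controls, as the only knockout library, 3.47% of all genes were called, Dnajc13 and Hspa1b among them. That fit takes its spread from the other groups and assumes that the lone library varies as they do.

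**Figure D2:**
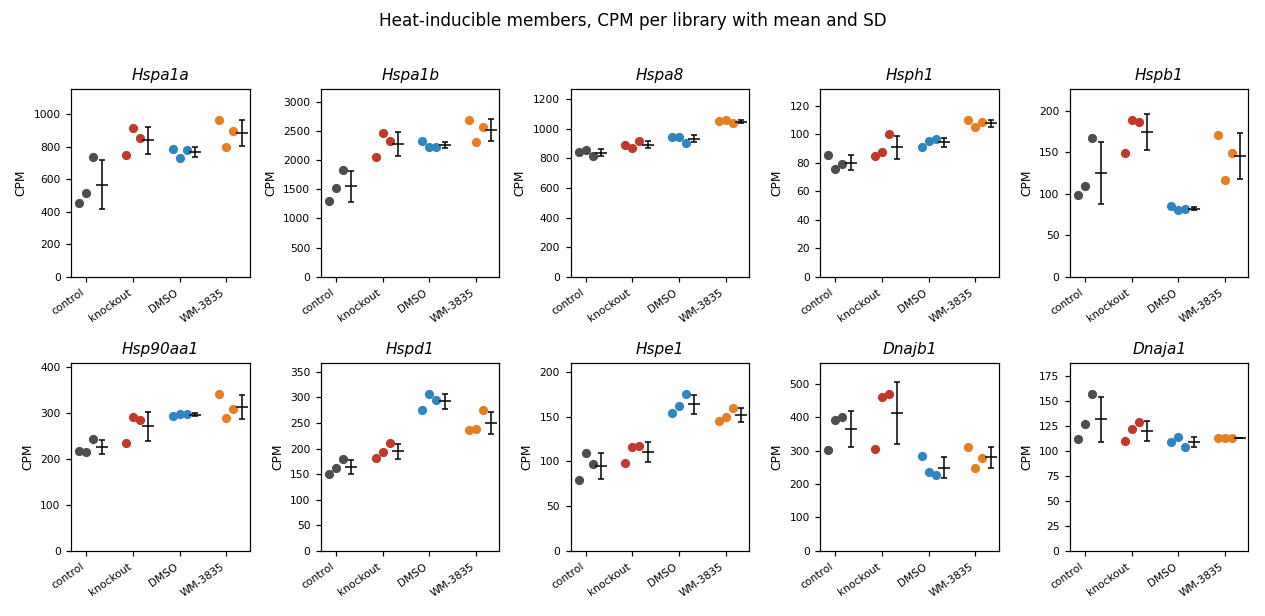
CPM of the 10 heat-inducible members, with 1 point per library, grouped along the horizontal axis, and the mean ± SD (n = 3) beside the points. Hspa1b lies at 1302 to 1831 CPM in the controls and at 2053 CPM or more in every other library. Hspb1 is lowest in the DMSO libraries, and Dnajb1 has its lowest mean there but overlaps the WM-3835 libraries.

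With WM-3835, the small heat shock genes Hspb1 and Hspb8 had the smallest adjusted p of all members, while Hspa1a, Hspa1b and Hsp90aa1 were not called. Of 68 tested members 6 rose and 1 fell (10.3%), against 18.7% of all tested genes, of which 9.34% were higher and 9.35% lower. The share among members was again no higher than among all genes. The median log2 change was 0.02 for members and -0.01 for all genes, and the groups did not overlap for 12 members in the higher and 11 in the lower direction, against 23.1% and 23% of genes (46.1% in either direction).

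Hspb1 stood at 84.6, 80.4 and 81.3 CPM with DMSO and at 171, 116 and 149 CPM with WM-3835. The DMSO libraries lay close together and all below the inhibitor libraries, and Hspb1 rose by 0.82 (SE 0.16, 1.77-fold, adjusted p = 0.00118). Hspb8, the partner of BAG3 in selective autophagy, stood at 128, 109 and 114 CPM with DMSO and 148, 148 and 144 CPM with WM-3835, a rise of 0.33 (SE 0.08, adjusted p = 0.00594) with no overlap. These were the only members called in the comparison under all 23 other fits. The other 5 tested small heat shock genes were not called, and the 8 summed to 230 to 246 CPM with DMSO and 299 to 350 CPM with WM-3835. Several of the others are best known from muscle: Hspb6 stood at 11.3 ± 1.21 and 11.6 ± 1.67 CPM, and Hspb7 at 0.366, 0.337 and 0.0936 CPM with DMSO and 0.0224, 0.157 and 0.174 CPM with WM-3835. The 7 skeletal muscle markers summed to 11.9 to 15.1 CPM with DMSO and 3.76 to 6.31 CPM with the inhibitor, and their part in these values was not tested.

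Among HSP70 genes, Hspa1l, an HSP70 next to Hspa1a on chromosome 17, stood at 13.7, 13.6 and 12.9 CPM with DMSO and 21.8, 18.0 and 16.9 CPM with WM-3835, without overlap (0.50, SE 0.15, adjusted p = 0.0231). Hspa8 stood at 946, 948 and 907 CPM with DMSO and 1053, 1057 and 1038 CPM with WM-3835, a small rise of 0.17 (SE 0.06, 1.12-fold, adjusted p = 0.0481) without overlap. Hspa1b, by contrast, stood at 2325, 2225 and 2235 CPM and 2682, 2314 and 2567 CPM (0.16, SE 0.10, adjusted p = 0.306), with 1 inhibitor library inside the DMSO range. Hspa1a stood at 783, 728 and 782 CPM and 960, 800 and 895 CPM (0.21, SE 0.13, adjusted p = 0.291), and the groups did not overlap. The pair summed to 2953 to 3108 CPM with DMSO and 3113 to 3642 CPM with WM-3835.

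The DnaJ genes that passed were of classes A and C. Dnaja4, a class A gene, fell from 46.3, 44.9 and 45.3 CPM to 35.7, 37.8 and 37.8 CPM (-0.30, SE 0.10, adjusted p = 0.0421). Dnajc14, a membrane J protein of the endoplasmic reticulum, rose from 76.3, 65.3 and 72.7 CPM to 84.9, 89.9 and 83.9 CPM (0.27, SE 0.09, adjusted p = 0.0386). Dnajc22 rose from 0.809, 0.524 and 0.796 CPM to 1.70, 2.43 and 2.26 CPM (1.57, SE 0.53, adjusted p = 0.0468), at few counts. None of these groups overlapped. The nearest members outside the threshold were Dnajb12, at 29.1 ± 1.99 and 37.4 ± 1.76 CPM without overlap (0.36, SE 0.13, adjusted p = 0.0658), and Hspd1 (-0.22, SE 0.08, adjusted p = 0.0753). Hspd1 was called lower without WM-3835 3 (-0.30, adjusted p = 0.0375) or control 3 (-0.23, adjusted p = 0.0395). It was also called by DESeq2, limma-voom, without a low-count filter, with upper-quartile scaling and on the 6 libraries alone (-0.27 to -0.23, adjusted p 0.0253 to 0.0477). Dnajb12 was called higher without control 3 (0.35, adjusted p = 0.0139) and on the 6 libraries alone.

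Apart from those of Hspb1 and Hspb8, these calls lay near the threshold. Leaving out any 1 of the 6 DMSO and WM-3835 libraries ended the calls of Hspa8 (0.14 to 0.18, adjusted p 0.0823 to 0.203), Dnajc22 (1.40 to 1.71, adjusted p 0.07 to 0.157) and Dnaja4 (-0.31 to -0.27, adjusted p 0.0884 to 0.151). That of Hspa8 also ended without control 1 or 2 or any knockout library (adjusted p 0.0501 to 0.0719), and that of Dnajc22 without knockout 1 or 3 (both 0.0561). Dnajc14 was not called without DMSO 2, DMSO 3, any WM-3835 library or knockout 2 (0.21 to 0.29, adjusted p 0.0527 to 0.185), and Hspa1l without any DMSO library or WM-3835 1 (0.39 to 0.52, adjusted p 0.0679 to 0.161). The count of 7 became 3 without DMSO 1, 2 without DMSO 2, 2 without DMSO 3, 2 without WM-3835 1, 3 without WM-3835 2 and 4 without WM-3835 3. Fitted on those 6 libraries alone, it became 17, with 10 higher and 7 lower, while the share of all genes called became 34.6%.

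**Figure D3:**
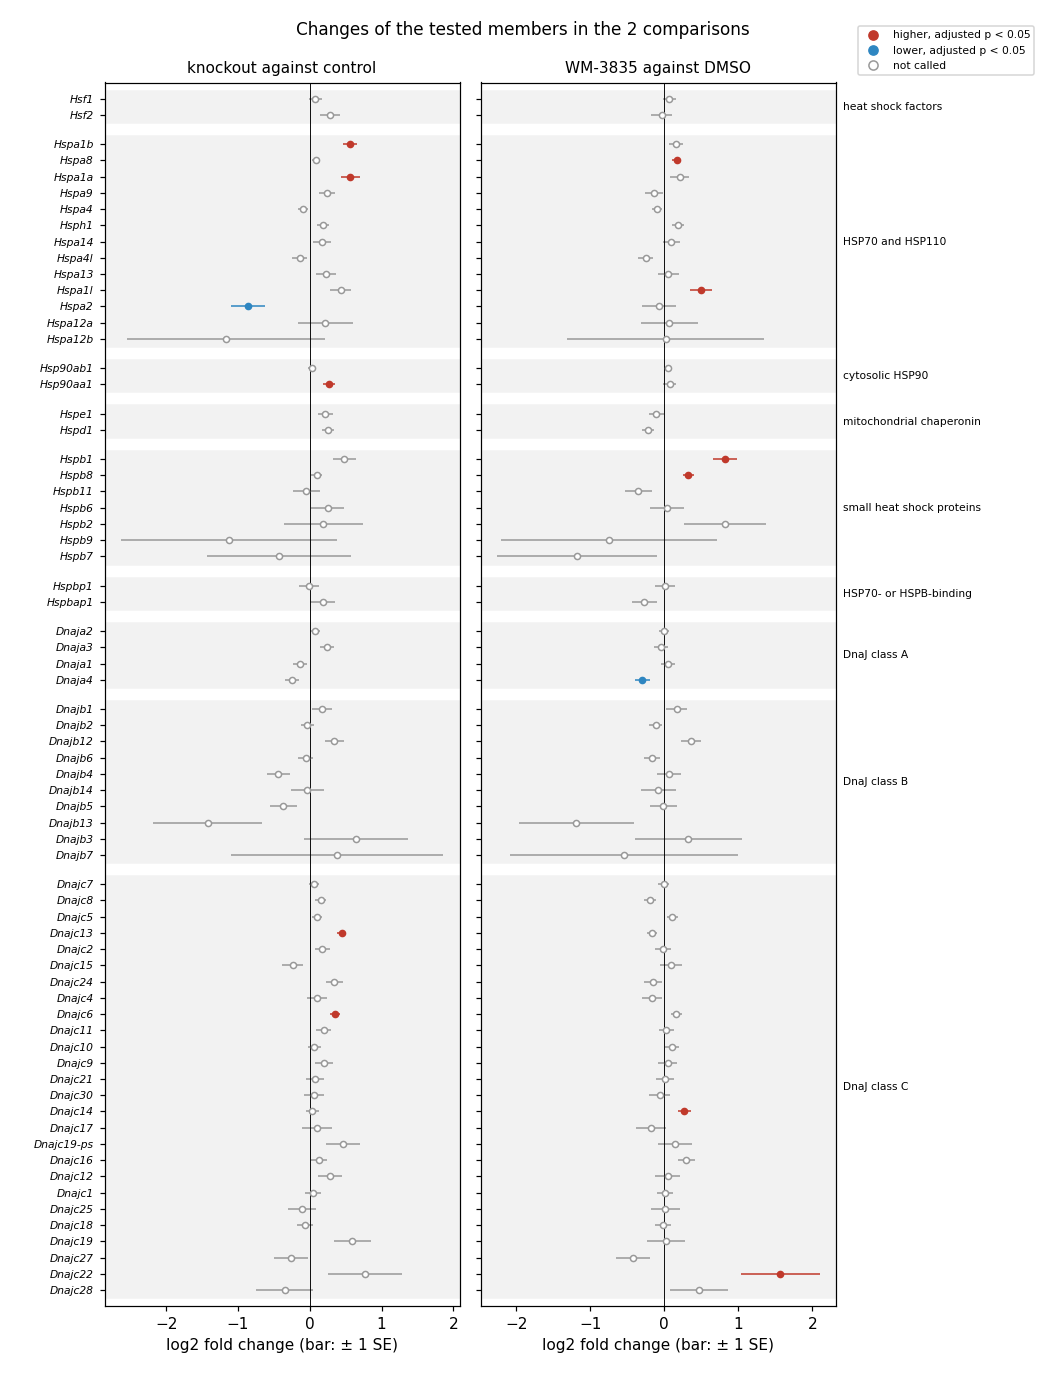
Log2 fold change of each of the 68 tested members, with bars of 1 SE, in the knockout against control and with WM-3835 against DMSO, by role. Filled points passed an adjusted p of 0.05: in the knockout 5 were higher and 1 lower, and with WM-3835 6 were higher and 1 lower.

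Beside 18.7% of all genes called, 2 of the heat-inducible members rose with WM-3835 and 8 were not called, with a median of 0.16. The 2 were Hspb1 and, near the threshold, Hspa8, which is on the list although it is also the constitutive HSP70. The heat-inducible members summed to 5193 to 5344 CPM with DMSO and 5431 to 6123 CPM with WM-3835. These sums did not overlap, and neither did the groups for 46.1% of single genes. Hspa1a and Hspa1b, which were not called, made up 2953 to 3108 and 3113 to 3642 CPM of the sums, so the sums mostly hold that pair. Hsph1 stood at 94.6 ± 3.25 and 108 ± 2.45 CPM (0.19, SE 0.08, adjusted p = 0.116), and Dnajb1 at 249 ± 30.9 and 280 ± 31.4 CPM (0.17, adjusted p = 0.488). Hsf1 stood at 75.4 ± 5.37 and 79.0 ± 3.61 CPM (0.07, adjusted p = 0.695) and Hsf2 at 21.4 ± 3.91 and 20.9 ± 0.859 CPM (-0.03, adjusted p = 0.93). Immediate early genes did not share one direction here: 1 of 16 rose, 2 fell, and they summed to 8333 to 10210 CPM with DMSO and 7898 to 10680 CPM with WM-3835. Xist was high in all 6 of these libraries.

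Whether deletion and inhibition differ was tested directly, as the inhibitor effect minus the knockout effect. Of 68 members 2 were called, both lower (2.94%), against 10.1% of all genes, 5.69% higher and 4.41% lower. Dnajc13 rose in the knockout and stood at 263, 256 and 265 CPM with DMSO against 231, 235 and 231 CPM with WM-3835 (-0.17, SE 0.07, adjusted p = 0.0847). The difference of the effects was -0.61 (SE 0.09, adjusted p = 2.72e-04). Hspd1, with 275, 306 and 296 CPM under DMSO and 237, 239 and 276 CPM under WM-3835, differed by -0.47 (SE 0.12, adjusted p = 0.0149), although neither effect alone was called. Both differences were called in all 22 other fits of this comparison.

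For the other members called in the knockout and for Hspb1 and Hspb8, the difference did not pass the threshold. It was -0.40 for Hspa1b (SE 0.14, adjusted p = 0.0741), -0.35 for Hspa1a (SE 0.18, adjusted p = 0.249), -0.19 for Hsp90aa1 (SE 0.12, adjusted p = 0.384), -0.19 for Dnajc6 (SE 0.10, adjusted p = 0.295), 0.80 for Hspa2 (SE 0.33, adjusted p = 0.147), 0.34 for Hspb1 (SE 0.23, adjusted p = 0.398) and 0.23 for Hspb8 (SE 0.11, adjusted p = 0.222). Without control 3, 6 members were called lower, among them Hspa1b (-0.55, adjusted p = 0.00424) and Hspa1a (-0.60, adjusted p = 0.00353). Hspa1b was called without knockout 1 too (-0.485, adjusted p = 0.0453), and with all libraries by DESeq2 (-0.41, adjusted p = 0.0326), by limma-voom (-0.41, adjusted p = 0.0479) and by edgeR without a low-count filter (-0.425, adjusted p = 0.0338). The splicing-associated gene Dnajc8 was the nearest uncalled member, at -0.34 (SE 0.11, adjusted p = 0.0645).

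**Figure D4:**
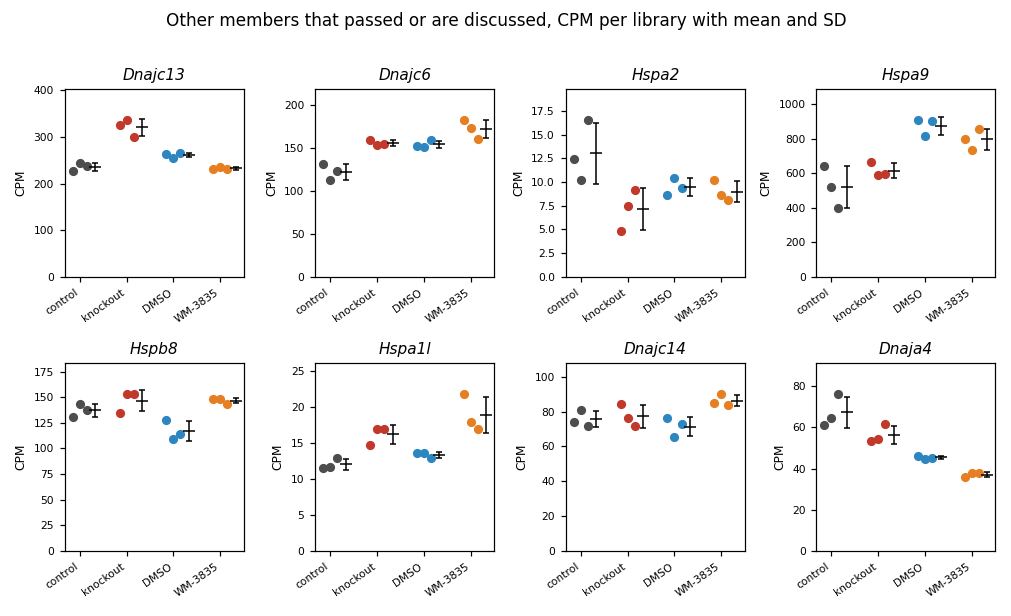
CPM of 8 further members, with 1 point per library and the mean ± SD (n = 3) beside the points. Dnajc13 lies at 300 to 335 CPM in the knockout and at or below 265 CPM in all other libraries, and Dnaja4 lies lowest with WM-3835 at 35.7 to 37.8 CPM.

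The control groups of the 2 comparisons did not have the same chaperone levels. Wildtype cultures with DMSO were compared with tamoxifen-treated controls as a description, since genotype label, treatment and Xist differ together and cannot be told apart. Of 68 members 15 were higher and 6 lower with DMSO (30.9%), against 24.6% of all genes, 11.4% higher and 13.3% lower. The groups did not overlap for 24 members in the higher and 9 in the lower direction, against 19.6% and 19.4% of genes (38.9% in either direction). The 4 members with the smallest adjusted p encode mitochondrial chaperones: Hspd1 was higher by 0.83 (164 ± 14.3 CPM in the controls, 292 ± 15.5 CPM with DMSO, adjusted p = 8.55e-07), Hspe1 by 0.79 (adjusted p = 1.39e-05), Hspa9 by 0.75 (521 ± 122 and 874 ± 53.3 CPM, adjusted p = 1.21e-04) and the mitochondrial J protein gene Dnaja3 by 0.66 (adjusted p = 4.74e-05). Hspd1 and Hspe1 kept a ratio of 0.489 to 0.624 in RPKM over all libraries. With Xist as a covariate only these 2 of the 21 remained called, and the share of all genes called was 4.26%. The log2 differences in that fit were 0.56 for Hspa1b, 0.44 for Hspa1a, 0.505 for Hsp90aa1, 0.62 for Hspa9 and 0.59 for Dnaja3 (adjusted p 0.0973 to 0.395).

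The 6 members called lower with DMSO came from several roles: 2 of the 7 tested small heat shock genes, 1 of the 4 genes of class A, 2 of the 10 tested of class B and 1 of the 13 HSP70 and HSP110 genes. Hspb1 was lower with DMSO (-0.61, adjusted p = 0.00906), and so were Dnajb1 (-0.55, adjusted p = 0.00726), Dnajb4 (-0.55, adjusted p = 0.0154), Dnaja4 (-0.57, adjusted p = 2.76e-04), the HSP110-family gene Hspa4l (-0.41, adjusted p = 0.00516) and Hspb8 (-0.23, adjusted p = 0.0391). Hspb1 was not called without control 3 (-0.32, adjusted p = 0.0761), Dnajb4 without DMSO 2 or control 3 (-0.43 and -0.41, adjusted p 0.0963 and 0.0772), and Hspb8 without control 2 or 3, DMSO 2 or 3, knockout 2 or 3 or any WM-3835 library (adjusted p 0.0574 to 0.197). Beside 11.4% of all genes called higher and 13.3% lower, class C had 5 genes called higher and none lower. Of the 10 heat-inducible members 6 were higher and 2 lower. Immediate early genes were lower with DMSO in 13 of 16 cases, with a median of -0.88.

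The knockout and DMSO groups were both set against the same 3 control libraries, so their changes are not independent and are given side by side only. Hspa1b had log2 differences of 0.55 and 0.54, Hspa1a 0.57 and 0.43, Dnajc6 0.35 and 0.33, and Hsp90aa1 0.27 and 0.40, all called. With DMSO, Hspa1a was not called without control 1 (0.31, adjusted p = 0.0681) or control 2 (0.385, adjusted p = 0.0573), by DESeq2 (0.41, adjusted p = 0.0702) or on the 6 libraries alone (0.42, adjusted p = 0.0818). Dnajc13 had 0.44 and 0.15 (the latter not called, adjusted p = 0.114). In levels, Hspa1b stood at 2281 ± 211 CPM in the knockout, 2262 ± 55.2 with DMSO and 2521 ± 189 with WM-3835, and at 1554 ± 265 CPM in the controls alone. The members together held 0.912% to 1.02% of control counts, 1.06% to 1.15% of knockout counts, 1.15% to 1.17% with DMSO and 1.16% to 1.23% with WM-3835.

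**Figure D5:**
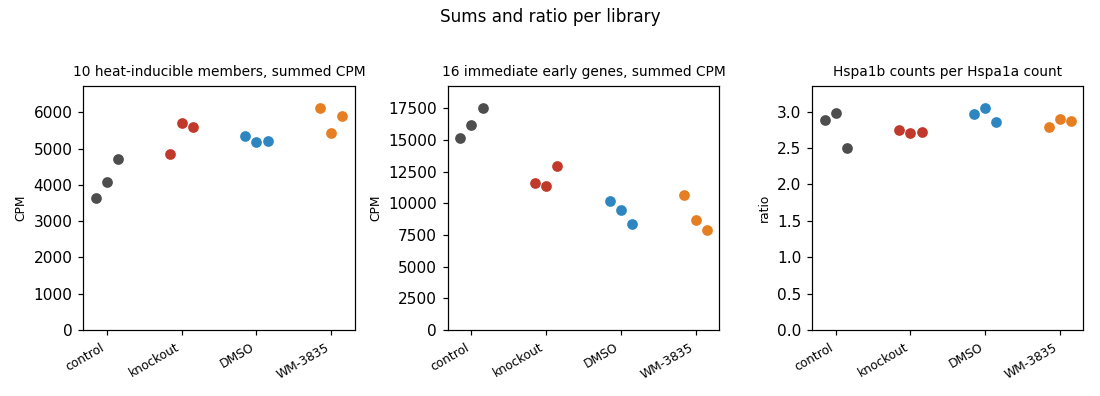
Summed CPM of the 10 heat-inducible members (left) and of 16 immediate early genes (middle), and Hspa1b counts for each Hspa1a count (right), with 1 point per library. The controls are lowest for the heat-inducible sum (3643 to 4704 CPM) and highest for the immediate early sum (15170 to 17550 CPM), and the count ratio lies between 2.50 and 3.05 in every library. Hspa1a and Hspa1b make up 1754 to 2564 CPM of the heat-inducible sum in the controls and 2798 to 3642 CPM elsewhere.

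Of 32 co-chaperones and partner proteins outside the symbol rule, 3 rose and 3 fell in the knockout (median 0.04), and 2 rose and 4 fell with WM-3835 (median 0.04). That is 18.8% of them in each comparison, beside 14.2% and 18.7% of all genes. In the knockout the immunophilins of the HSP90 cycle rose, Fkbp5 by 0.59 (44.5 ± 6.96 to 67.0 ± 7.83 CPM, adjusted p = 0.0016) and Fkbp4 by 0.30 (204 ± 5.18 to 252 ± 13.3 CPM, adjusted p = 0.00505), as did the mitochondrial HSP90 gene Trap1 by 0.28 (adjusted p = 0.0225). The genes that fell were the HSP70 exchange factor gene Bag3 (-0.29, adjusted p = 0.0487), the crystallin gene Cryaa (-3.13, adjusted p = 0.0414) and Serpinh1, the collagen chaperone (-0.63, adjusted p = 3.05e-04). Without any 1 of control 2, the knockout libraries or the DMSO libraries the number that fell was 1, and without control 1 the number that rose was 6. With DMSO against the same controls, Fkbp5 (0.585), Trap1 (0.35) and Bag3 (-0.40) were called in the same direction. Fkbp4 (-0.04), Cryaa (-1.84) and Serpinh1 (0.12) were not called there. Beside Serpinh1, fibroblast markers summed to 97.8 to 140 CPM in the controls and 33.8 to 43.3 CPM in the knockout. Of the 6 markers 4 fell, beside 8.06% of all genes called lower. With DMSO against control, Dcn (-1.825), Lum (-2.87) and Pdgfra (-2.51) were called lower, and Col1a1, Col1a2 and Thy1 were not called. With WM-3835, Dcn (-1.10) and Thy1 (-3.79) were called lower, Pdgfra was called higher (4.11), and Col1a1, Col1a2 and Lum were not called. The part of these markers was not tested, and in bulk RNA fewer cells of a type and less RNA per cell cannot be told apart.

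With WM-3835 the small heat shock protein gene Cryab, which the symbol rule does not take, rose from 7.20 ± 0.771 to 17.6 ± 2.02 CPM (1.29, SE 0.19, adjusted p = 1.03e-04), as Hspb1 and Hspb8 did. Bag6, which triages misplaced membrane proteins, rose by 0.31 (adjusted p = 0.00144). The genes that fell were Serpinh1 (-0.46, adjusted p = 0.0021) and the endoplasmic reticulum genes Hsp90b1 (-0.67, adjusted p = 4.02e-04), Sil1 (-0.35, adjusted p = 0.0117) and Hyou1 (-0.47, adjusted p = 0.0431). Between DMSO and control, Cryab was lower (-0.645), and Hsp90b1 (0.895), Sil1 (0.42) and Hyou1 (1.01) were higher, all called. Bag6 (-0.07) and Serpinh1 (0.12) were not called between those groups. Of the 4 endoplasmic reticulum chaperones that the rule leaves out, 2 rose in the knockout (Dnajb9 and Dnajc3) and 2 fell with WM-3835 (Hspa5 and Dnajc3), and 3 differed between the effects. Among all genes 6.12% rose in the knockout, 9.35% fell with WM-3835 and 10.1% differed between the effects. Hspa5 (1.01), Dnajb11 (0.52) and Dnajc3 (0.51) were called higher with DMSO than in control, beside 11.4% of all genes, and Dnajb9 (0.285) was not called. The 8 subunits of the cytosolic chaperonin TRiC, which folds actin and tubulin, were called in neither comparison (medians -0.01 and 0.04). Without control 3, 1 was called lower in the knockout. With DMSO against control 4 were higher (2 without DMSO 1 or DMSO 2), also beside 11.4% of all genes.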

How the data were processed

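The deposited values are raw counts per gene from RNA sequencing of 12 libraries, and per the file headers each gene has an Entrez ID, a symbol and a gene length in bases, the unit behind RPKM here. Per the submitters' processing notes, the authors used featureCounts and mm10. The sources used here name no aligner, annotation or strand setting. The kit, read as 75-base pairs per the labels' protocols, does not mark strand, so antisense reads cannot be told apart.

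Genes without a symbol (0.657% to 0.743% of counts) were left out. In R 4.3.3, edgeR 4.0.16 scaled libraries by TMM, filterByExpr kept 18670 of 25867 genes, and the quasi-likelihood test was run on 1 model of the 12 libraries with a mean for each of the 4 groups. Calls are two-sided at a Benjamini-Hochberg adjusted p under 0.05 over all tested genes. SE is the log2 change divided by the root of its F statistic. The fit was tested on simulated data with planted changes larger than most of those reported here, so that test does not cover changes of the reported size. The labels say biological replicates but not whether cultures were separate, and p-values measure the spread between these samples.

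The members, the gene lists and the tests were chosen with earlier results of these data known. Named were Kat7, Hsf1, Hsf2, the heat-inducible members, up to 8 called members per direction and comparison, the highest member of each role, the member with the widest range, the nearest members on each side of the threshold, and up to 3 called genes per direction of each other list. Other members are named as a description. Alternatives were other scalings (RLE, upper quartile), DESeq2 1.42.0, limma-voom (limma 3.58.1), other filters, fewer libraries, a replicate block, the summed HSP70 pair, an Xist covariate and each library left out.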

Additional observations from a re-analysis of the deposited data

Results flagged for a closer look

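For 2 members the effect of WM-3835 differed from that of the Kat7 knockout by a test of the difference itself (edgeR, inhibitor effect minus knockout effect, log2 scale). Dnajc13, the endosomal J protein gene, differed by -0.61 (SE 0.09, adjusted p = 2.72e-04): it was higher in 3 of 3 knockout libraries than in any control, and lower in 3 of 3 inhibitor libraries than in any DMSO library. Hspd1, the mitochondrial chaperonin gene, differed by -0.47 (SE 0.12, adjusted p = 0.0149), with 3 of 3 knockout libraries above all controls and overlapping DMSO and inhibitor libraries. Hspd1 also differed between the control sets, by 0.83 (adjusted p = 8.55e-07).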

How the results depend on the processing

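No call of a member reversed under any of the 23 other fits. The knockout calls, 6 in number, ranged from 4 to 10 with 1 library left out (4 to 10 higher, 0 to 2 lower). They became 0 with Xist as a covariate (0 higher, 0 lower, 2.57% of all genes), 2 with knockout 3 as the only knockout library (2 higher, 0 lower, 3.47% of all genes), and lost the lower call (0) on the 6 libraries alone. The inhibitor calls ranged from 2 to 10 (2 to 8 higher, 0 to 2 lower), and became 17 on their 6 libraries (10 higher, 7 lower, with 34.6% of all genes called against 18.7%), 4 without a low-count filter (2 higher, 2 lower), 3 higher and 5 lower with upper-quartile scaling, and 4 lower with DESeq2 and 2 lower with CPM over 1 in 3 libraries. The difference gave 2 to 6 calls (0 higher, 2 to 6 lower), and 4 with DESeq2, all lower. DMSO against control gave 17 to 25 calls (12 to 17 higher, 3 to 8 lower), and 2 with the Xist covariate (2 higher, 0 lower, 4.26% of all genes). The causes were not tested.

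For the heat-inducible members, calls with 1 library left out ranged from 2 to 5 in the knockout, 1 to 3 with the inhibitor, 1 to 3 for the difference and 6 to 9 for DMSO against control. In the knockout they became 0 with Xist as a covariate, 1 with knockout 3 alone and 5 without a filter. With the inhibitor they became 5 on 6 libraries and 1 with CPM over 1 in 3 libraries, RLE scaling, the Xist covariate or knockout 3 alone. The difference gave 2 with DESeq2, limma-voom or no filter, and DMSO against control 2 with the Xist covariate.

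With the replicate block, the inhibitor calls were 3 higher and 2 lower and the heat-inducible calls 5 in the knockout and 2 for the difference, and the knockout gave 8. It called Hspb1 (0.51, adjusted p = 0.00906) and Hspd1 (0.25, adjusted p = 0.0361) in the knockout, Hspd1 with the inhibitor (-0.225, adjusted p = 0.0443) and the difference for Hspa1b (-0.41, adjusted p = 0.018). Deviations from the group means were correlated between same-numbered libraries. The correlations were 0.007, 0.002 and 0.009 for control with knockout and 0.042, 0.058 and 0.003 for DMSO with WM-3835. Such values cannot settle whether the numbers pair the libraries. Not every library correlated best with its own number.

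Depth limits Dnajc22, Hspb7, Dnajb13 and other members near 1 CPM. With RLE scaling 70 of the 72 members kept their place in the order of levels.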

Other observations

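Members known mainly from testis or cilia were present at low levels in these epithelial cells. Dnajb13, an axonemal J protein gene, had the widest range of the members with a mean of at least 1 CPM. It stood at 3.93, 1.57 and 3.87 CPM in the controls, 1.93, 0.773 and 0.765 CPM in the knockout, 1.08, 0.337 and 1.05 CPM with DMSO and 0.358, 0.678 and 0.0347 CPM with WM-3835, and was not called in either comparison (edgeR adjusted p = 0.235 and 0.341). Ciliated cell markers summed to 79.95 to 134 CPM in the controls, 66.2 to 88.1 CPM in knockouts, 66.4 to 75.8 CPM with DMSO and 26.1 to 29.5 CPM with WM-3835. With WM-3835 5 of the 6 markers fell, beside 9.35% of all genes called lower. In the knockout Foxj1 (-1.17) and Rsph1 (-1.30) were called lower, beside 8.06% of all genes. With DMSO against control Dnah5 (-1.85), Dnah11 (-1.03) and Tppp3 (-0.94) were called lower, beside 13.3% of all genes. Hspa2 stood at 13.0 ± 3.20 CPM in the controls, and 6 male germ line markers summed to 2.23 to 3.95 CPM there and 1.46 to 3.76 CPM without Kat7, with none of the 5 tested called. Dnajc19 and its processed copy Dnajc19-ps stood at a mean of 4.83 and 6.64 CPM, and share 75-base runs, so the counts of the pair are uncertain.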
